A study of Mus musculus with 12 samples.

Results

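The genes described here are 37 mouse genes of glycolysis and of the response to low oxygen, taken from 48795 genes counted in fetal membranes. They were chosen by a list of gene symbols, drawn up with earlier results of these data known. All 37 were found in the count table by symbol and all had enough counts to be tested, among 18153 tested genes. The list holds 4 genes of glucose entry, 9 of upper glycolysis, 7 of lower glycolysis, 5 of pyruvate, lactate and acid handling, 4 of oxygen sensing and 8 other genes known as hypoxia-induced. Together they took 0.401 to 0.762% of the counts of a library.

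Glycolysis splits glucose into pyruvate and yields ATP without oxygen, and lactate dehydrogenase then turns pyruvate into lactate. Cells sense oxygen through prolyl hydroxylases, which mark the alpha subunits of the hypoxia-inducible factors (HIF) for destruction while oxygen is present. When oxygen is low the subunits persist, pair with a partner protein and bind promoters and enhancers at a short core, ACGTG or GCGTG, in genes that include many glycolytic enzymes. Among the fetal membranes the amnion carries no blood vessels, and the yolk sac of the mouse is the earliest site of blood formation.

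RNA was sequenced from fetal membranes, the sacs around the fetus, in 4 groups of 3 libraries. E12 WT and the group labelled E18 WT were wild-type mice of strain C3H at embryonic days 12 and 18. E12 DKO and E18 DKO were mice of the same ages that lacked both biglycan (Bgn) and decorin (Dcn), small leucine-rich proteoglycans of the extracellular matrix, and their strain is given as C3H and C57BL/6. The study's title presents the double knockout (DKO) as a model of preterm birth. Strain and genotype cannot be told apart. The labels do not say whether the libraries of a group came from separate animals or litters, so the p-values measure the spread between these libraries, which may be technical. In bulk tissue, fewer cells of a type and less RNA per cell cannot be told apart.

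Total counts were 19967593 to 33065424 per library. Bgn lay at 14.3 to 25.1 CPM (counts scaled with TMM factors to a common library size) in the 6 DKO libraries and at 223 to 686 CPM in the 6 wild-type libraries, and Dcn at 4.67 to 8.44 against 198 to 978 CPM. Membrane markers such as Krt8, Krt18, Afp and Col1a1 were present in the 12 libraries. In the wild-type libraries a marker of stage went against the stage labels. Embryonic beta-globins took 82.2 to 85% of the beta-globin counts of E12 DKO and 1.33 to 2.67% in E18 DKO, but 74.7, 81.3 and 87.7% in the labelled E18 WT group. In E12 WT they made up 14.8, 95 and 96.9%, so E12 WT 1 stood apart from its group. Cell division genes went the same way, since 8 of them summed to 765 to 884 CPM in the labelled E18 WT group, 809 to 857 CPM in E12 DKO and 32.3 to 50.7 CPM in E18 DKO, with 219, 896 and 905 CPM in E12 WT. Where E18 DKO is set against the labelled E18 WT group, genotype and stage therefore cannot be told apart. The labelled groups were kept, and the genes called at E18 are also given for E18 DKO against E12 DKO. That contrast leaves out the mean of the labelled E18 WT group, though scaling and spread came from the fit over all 12 libraries.

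At E18, 22 of the 37 genes differed between DKO and the labelled E18 WT group, 11 higher and 11 lower (59.5%, edgeR's quasi-likelihood test, Benjamini-Hochberg adjusted p under 0.05). Among all tested genes 42.3% passed the same threshold in that comparison, 20.5% higher and 21.8% lower. The genes did not move one way. Of the 25 genes of glucose entry, glycolysis, pyruvate and lactate, 11 fell, 3 rose and 11 were not called. Of the 12 genes of oxygen sensing and hypoxia response, 8 rose, 0 fell and 4 were not called. In 25 genes the groups did not overlap, 13 higher and 12 lower, against 56.9% of all tested genes (27.8% higher and 29.1% lower). Over the whole list the median log2 fold change was 0.03, against -0.04 for all tested genes.

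At E12, 0 of the 37 genes were called, against 0.353% of all tested genes, and 14 had an unadjusted p under 0.05, against 24.3% of all. Their median log2 fold change was -0.41, against -0.08 for all tested genes, and 30 of 37 values were negative. In 12 of the 37 genes the E12 groups did not overlap (1 higher and 11 lower in DKO), against 30.1% of all tested genes (15.7% higher and 14.4% lower). DESeq2's Wald test called 7 of the 37, 1 higher and 6 lower, and limma voom called 0. Over all tested genes DESeq2 also called more than the main fit did, as given in the closing section on processing. Without E12 WT 1, edgeR called 6 lower, which were Aldoa, Egln1, Eno1b, Gapdh, Slc16a3 and Slc2a1. The count over all tested genes moved as well. It was 64 of 18153 in the main fit, 1 to 3199 when single libraries were left out and 0 to 3753 under the other alternatives. Fits on fewer libraries or with another filter can test other sets of genes. The difference between the E18 and E12 genotype contrasts was itself called for 21 of the 37 genes, 14 higher and 7 lower, against 41.9% of all tested genes (21.6% higher and 20.3% lower).

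**Figure D1:**
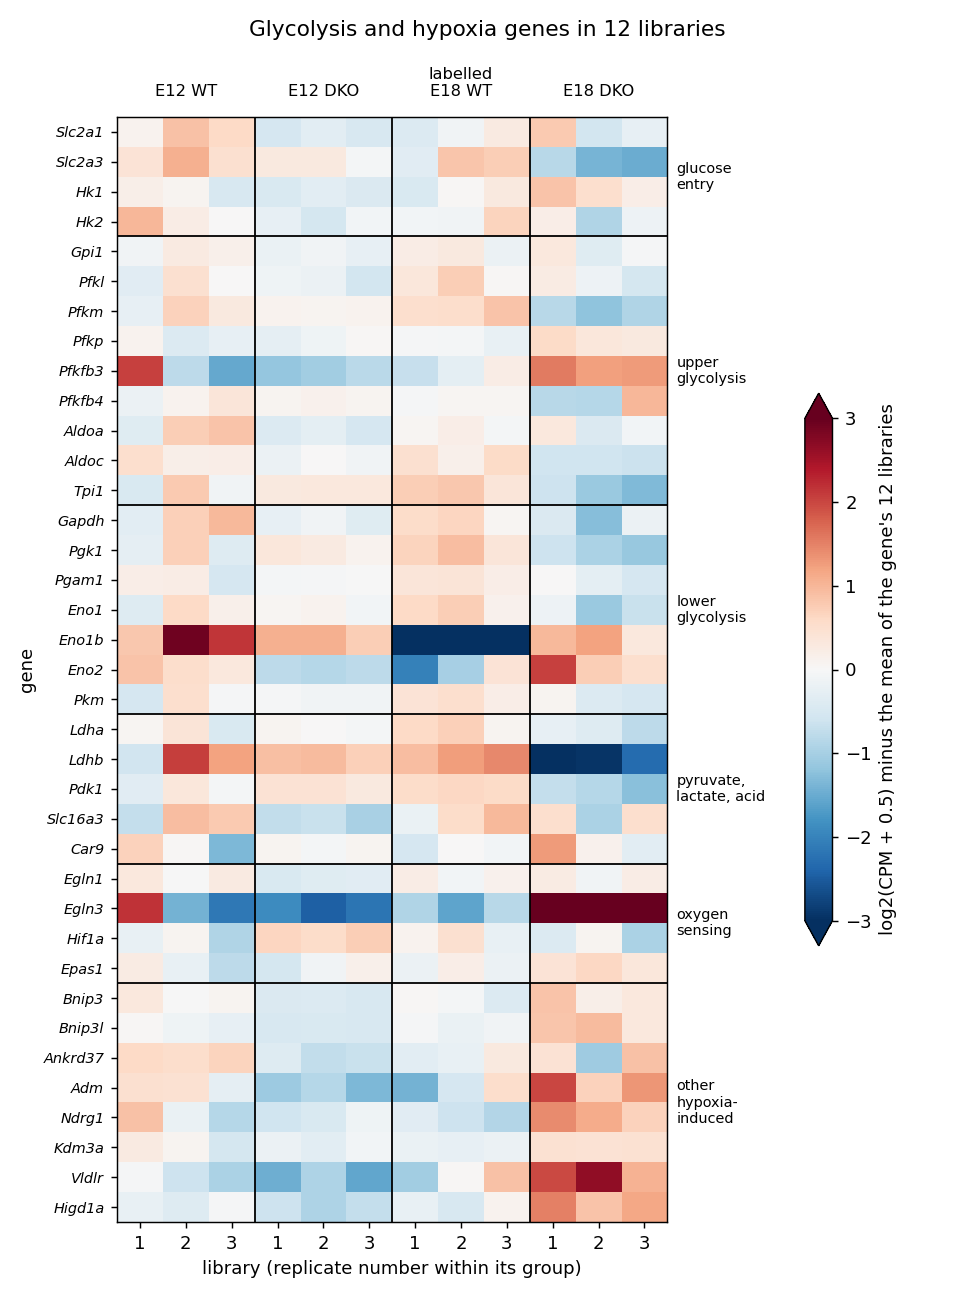
Each row is 1 of the 37 genes, ordered by role, and each column is 1 of the 12 libraries. Colour gives log2(CPM + 0.5) minus the mean of that gene's 12 libraries, limited to 3 either way. The E18 DKO columns are red in most rows of the other hypoxia-induced genes and blue in Slc2a3, Pfkm, Tpi1, Pgk1, Ldhb and Pdk1, and Eno1b is dark blue in the labelled E18 WT group.

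The promoters of 4 genes are printed first, because they show that the HIF core stands in promoters of genes that rose at E18 and of genes that fell. Higd1a and Bnip3 rose in E18 DKO, and Pgk1 and Ldha fell. Each line holds the 160 bases that end just before a RefSeq start site (build GRCm38.p6), 5′ to 3′ along the gene's strand. Capitals mark ACGTG or GCGTG on either strand, so CACGT and CACGC are the same cores read from the other strand, and adjoining cores run together.

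Higd1a promoter (chr9:121857797-121857956, minus strand): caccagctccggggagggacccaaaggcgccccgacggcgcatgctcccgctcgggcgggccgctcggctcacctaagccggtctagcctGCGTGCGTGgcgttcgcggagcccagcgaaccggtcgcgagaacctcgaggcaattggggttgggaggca

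Bnip3 promoter (chr7:138909507-138909666, minus strand): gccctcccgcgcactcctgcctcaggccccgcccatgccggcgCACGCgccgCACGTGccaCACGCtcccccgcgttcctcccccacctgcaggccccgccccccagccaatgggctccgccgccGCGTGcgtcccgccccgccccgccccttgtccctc

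Pgk1 promoter (chrX:106186940-106187099, plus strand): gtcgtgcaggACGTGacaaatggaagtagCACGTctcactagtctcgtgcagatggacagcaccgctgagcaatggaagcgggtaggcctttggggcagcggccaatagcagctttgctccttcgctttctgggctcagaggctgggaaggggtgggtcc

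Ldha promoter (chr7:46845644-46845803, plus strand): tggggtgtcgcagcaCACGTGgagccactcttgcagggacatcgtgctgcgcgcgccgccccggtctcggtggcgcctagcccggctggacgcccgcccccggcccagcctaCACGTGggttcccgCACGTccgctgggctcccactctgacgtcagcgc

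Higd1a holds 2 cores in these bases, Bnip3 5, Pgk1 2 and Ldha 5. RefSeq promoters, here 250 bases before to 50 bases after a start site, were found for 32 of the 37 genes, and Slc2a3, Ndrg1, Epas1, Eno1b and Bnip3l had no entry. Of their 48 promoters, 36 (75%) held ACGTG or GCGTG on either strand. The share was 43.8% of all 32851 promoters and 58.2% of the 16051 promoters of tested genes. Each core was also counted whether or not the other was present. ACGTG stood in 47.9% of the promoters of the listed genes, 19.6% of all promoters and 24% of those of tested genes. GCGTG stood in 52.1%, 32.4% and 46.6%. The palindrome CACGTG, which contains ACGTG on both strands and is also the E-box of other factors, stood in 10.4%, 7.15% and 9.12%. By direction at E18, a core stood in 6 of 11 promoters of genes that rose (54.5%), 15 of 18 of genes that fell (83.3%) and 15 of 19 of genes not called (78.9%). Counted by gene, these were 6 of 8, 9 of 10 and 13 of 14, against 63.6% of the 12649 tested genes with a promoter. A match is a description of these letters and not of binding.

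The first role is glucose entry. Slc2a1 encodes GLUT1, the broadly expressed glucose transporter, and had the highest level of the 4 genes, 82.7 CPM per kb of exon averaged over the 12 libraries (GRCm38 chromosome 4, 119108711 to 119137983). It had 193, 218 and 194 CPM in E12 DKO, versus 295, 501 and 416 CPM in E12 WT. It had 468, 184 and 228 CPM in E18 DKO, versus 203, 251 and 328 CPM in the labelled E18 WT group. The E12 groups did not overlap and the E18 groups did, and neither difference was called (log2 fold change -1.002 ± 0.34 at E12, SE, and 0.17 ± 0.33 at E18, n = 3 per group, adjusted p = 0.119 and 0.701 in edgeR's quasi-likelihood test). E18 DKO against E12 DKO was not called either (0.54 ± 0.33, edgeR adjusted p = 0.202).

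Slc2a3 encodes GLUT3, a transporter of high affinity (chromosome 6, 122727809 to 122801640). It had 61.0, 41.1 and 38.8 CPM in E18 DKO, versus 85.5, 193 and 182 CPM in the labelled E18 WT group, against 134, 134 and 104 CPM in E12 DKO and 146, 228 and 153 CPM in E12 WT. Each E18 DKO library was below the other 9. The log2 fold change was -1.71 ± 0.32 at E18 (edgeR adjusted p = 0.00176), -0.50 ± 0.31 at E12 (0.337) and -1.40 ± 0.31 for E18 DKO against E12 DKO (0.00435). Hk1 and Hk2 encode hexokinases, which trap glucose as glucose 6-phosphate, and neither was called at either stage. Hk1 was at 0.57 ± 0.25 at E18 (adjusted p = 0.0823) and was called against E12 DKO (0.97 ± 0.25, 0.0089), though not on library size alone (0.63, 0.0847).

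Upper glycolysis, from glucose 6-phosphate to the triose phosphates, had 3 genes lower and 1 higher of 9 at E18 (44.4%), near the 42.3% of all tested genes. Aldoa, the aldolase of muscle and many other tissues, had the highest level of this role, 176.3 CPM per kb (chromosome 7, 126795234 to 126809108). It had 477, 520 and 443 CPM in E12 DKO, versus 493, 1051 and 1140 CPM in E12 WT. It had 789, 466 and 594 CPM in E18 DKO, versus 654, 728 and 605 CPM in the labelled E18 WT group. The groups overlapped at both stages. At E12 the log2 fold change was -0.90 ± 0.30 (edgeR adjusted p = 0.119), and without E12 WT 1 it was -1.19 (0.00893).

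Pfkm encodes the muscle form of phosphofructokinase, the main control step of the pathway (chromosome 15, 98092589 to 98132447). It had 6.93, 5.16 and 6.48 CPM in E18 DKO, versus 18.3, 18.5 and 23.4 CPM in the labelled E18 WT group, and between 10.6 and 20.7 CPM in the 6 E12 libraries. The E18 DKO libraries were below the other 9. Log2 fold changes were -1.70 ± 0.25 at E18 (edgeR adjusted p = 0.000543) and -1.14 ± 0.24 against E12 DKO (0.00351). Pfkp, the platelet form, went the other way, from 121, 118 and 106 CPM in the labelled E18 WT group to 183, 156 and 150.2 CPM in E18 DKO. Its groups did not overlap, with a log2 fold change of 0.51 ± 0.17 (edgeR adjusted p = 0.0324). That call was lost when E18 DKO 1, E18 DKO 2 or any 1 of the labelled E18 WT libraries was left out (adjusted p = 0.0529 to 0.12), on library size alone (0.15, adjusted p = 0.488) and with no filter on low counts (0.0843). Pfkl, the liver form, was not called at E18 (-0.51 ± 0.27) or against E12 DKO (0.17 ± 0.27).

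Aldoc, the aldolase of brain, had 3.74, 3.71 and 3.59 CPM in E18 DKO, versus 8.40, 6.59 and 9.03 CPM in the labelled E18 WT group (chromosome 11, 78322968 to 78327781). It had 5.16, 5.93 and 5.43 CPM in E12 DKO, versus 8.46, 6.67 and 6.77 CPM in E12 WT. The DKO libraries were below the wild-type libraries at both stages, and the difference was called at E18 (log2 fold change -1.12 ± 0.22, edgeR adjusted p = 0.00244) and not at E12 (-0.41 ± 0.22, 0.268). The difference between these contrasts was not called (-0.71 ± 0.31, edgeR adjusted p = 0.0819).

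Tpi1 encodes triose phosphate isomerase, which converts the products of aldolase into each other (chromosome 6, 124810586 to 124814296). It had 249, 176 and 151 CPM in E18 DKO, versus 635, 673 and 487 CPM in the labelled E18 WT group, against 468, 472 and 479 CPM in E12 DKO. In E12 WT it varied from 279 to 652 CPM. Each E18 DKO library was below the other 9, with log2 fold changes of -1.64 ± 0.31 at E18 (edgeR adjusted p = 0.00193), 0.14 ± 0.30 at E12 (0.8) and -1.30 ± 0.31 against E12 DKO (0.00566). In CPM per kb it was second to Ldha in E12 DKO (171.7) and in the labelled E18 WT group (217.3), and stood at 69.8 in E18 DKO.

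Pfkfb3 makes fructose 2,6-bisphosphate, an activator of phosphofructokinase, and is a known HIF target. It had 79.5, 63.5 and 65.3 CPM in E18 DKO, versus 16.5, 21.8 and 31.5 CPM in the labelled E18 WT group. It lay at 113, 15.3 and 8.89 CPM in E12 WT, so the library that stood apart by its globins was the highest of the 12 here. The E18 difference was not called (1.58 ± 0.72, edgeR adjusted p = 0.0977), and E18 DKO against E12 DKO was (2.39 ± 0.74, 0.0215). That call was lost when any 1 of 4 libraries was left out (E12 DKO 1, 2 or 3 or E18 DKO 1, edgeR adjusted p = 0.0534 to 0.0705). Gpi1 and Pfkfb4 were not called in the genotype comparisons, with log2 fold changes of -0.29 and -0.02 at E12 and -0.14 and 0.03 at E18.

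Lower glycolysis, from glyceraldehyde 3-phosphate to pyruvate, had 4 genes lower, 2 higher and 1 not called at E18, where 21.8% of all tested genes were lower and 20.5% higher. Of these 6 genes, Pgk1, Gapdh, Pgam1, Eno1 and Eno1b share sequence with other genes and are uncertain. Pkm, pyruvate kinase, had the highest level of this role, 154.2 CPM per kb (chromosome 9, 59656368 to 59679375). It had 379, 365 and 360 CPM in E12 DKO, versus 276, 552 and 383 CPM in E12 WT. It had 415, 293 and 273 CPM in E18 DKO, versus 514, 549 and 450 CPM in the labelled E18 WT group. The E18 groups did not overlap, but the difference was not called (-0.62 ± 0.25, edgeR adjusted p = 0.0657), nor was that against E12 DKO (-0.17 ± 0.25, 0.601). Of the 50-base words of Pkm transcripts 25.8% also occur in other genes, so its counts are uncertain too.

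Pgk1, phosphoglycerate kinase and the first ATP-yielding step, had 42.2, 33.5 and 29.3 CPM in E18 DKO, versus 104, 124 and 83.6 CPM in the labelled E18 WT group (chromosome X, 106187100 to 106203699). It had 81.9, 78.6 and 69.6 CPM in E12 DKO, versus 53.8, 106 and 49.8 CPM in E12 WT. Each E18 DKO library was below the other 9. The log2 fold change was -1.57 ± 0.28 at E18 (edgeR adjusted p = 0.00161) and -1.13 ± 0.28 against E12 DKO (0.00764). Of the 50-base words of its transcripts 53.9% also occur in other genes, 53.8% in the copy Pgk1-rs7, so its counts are uncertain.

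Gapdh, Pgam1 and Eno1, the glyceraldehyde 3-phosphate dehydrogenase, phosphoglycerate mutase and enolase of most tissues, were also lower in E18 DKO. Gapdh lay at 362, 201 and 431 CPM against 719, 761 and 513 CPM (-1.003 ± 0.35, edgeR adjusted p = 0.0383). Pgam1 lay at 45.3, 36.7 and 31.4 CPM against 58.1, 59.0 and 51.3 CPM (-0.57 ± 0.20, edgeR adjusted p = 0.0429). Eno1 lay at 217, 111 and 152 CPM against 368, 405 and 265 CPM (-1.11 ± 0.29, edgeR adjusted p = 0.011). In each the groups did not overlap. The Gapdh call was lost without E18 DKO 1 or 2 or without labelled E18 WT 1 or 2 (adjusted p = 0.0756 to 0.118), and the Pgam1 call without 5 of the 6 libraries (0.0523 to 0.14) and with no filter on low counts (0.0738). Shared 50-base words make them uncertain, at 24.7% in Gapdh with 218 other genes, 36.2% in Pgam1 and 26% in Eno1. None of these falls was called against E12 DKO (-0.32, -0.21 and -0.63).

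Eno2, the neuronal enolase, rose, at 40.3, 15.9 and 13.4 CPM in E18 DKO against 1.92, 4.45 and 12.5 CPM in the labelled E18 WT group (1.88 ± 0.59, edgeR adjusted p = 0.0246). The groups did not overlap, although E18 DKO 3 and labelled E18 WT 3 lay close together. The call was lost without E18 DKO 1 or without labelled E18 WT 1 or 2, at 1.22 to 1.68 (adjusted p = 0.0597 to 0.126), and with the groups compared alone (0.0592), and without labelled E18 WT 3 the value was 2.85 (0.00336). Against E12 DKO it was at 2.18 ± 0.60 (0.012), a call lost without E18 DKO 1 (1.51, 0.0619).

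Eno1b was nearly absent from the labelled E18 WT group. Its counts were 2, 4 and 3 in the labelled E18 WT group, and 175 to 1704 in the other 9. The CPM values were 15.5, 18.1 and 9.53 in E18 DKO against 0.0754, 0.117 and 0.123 in the labelled E18 WT group, with 16.4, 16.6 and 13.1 in E12 DKO and 13.8, 60.8 and 35.1 in E12 WT. Summed over a group and set against the 9 counts of the labelled E18 WT group, the ratio was 139 in E18 DKO (95% exact counting interval 72.8 to 305), 144 in E12 DKO (75.5 to 315) and 365 in E12 WT (192 to 798). These intervals cover counting error only. It was called in each comparison that uses the labelled E18 WT group, with log2 fold changes of 7.03 ± 0.62 for E18 DKO against them (edgeR adjusted p = 7.73e-05), 7.12 ± 0.62 for E12 DKO against them (0.000861) and -8.37 ± 0.64 for them against E12 WT (0.000317). It was not called for E18 DKO against E12 DKO (-0.09 ± 0.42).

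Eno1b is a copy of Eno1 that shares most of its sequence, 85.2% of its 50-base words occurring elsewhere and 76.4% in Eno1. Reads with several alignments were not counted, so its counts can come only from reads that touch the bases that differ, and the gene is uncertain. Of the counts of both enolase genes, Eno1b took 5.4 to 14.2% in the other 9 libraries and 0.0205, 0.0289 and 0.0464% in the labelled E18 WT group. The 3 labelled E18 WT libraries and the 3 E12 WT libraries carry the same strain label, and they were the lowest and, in replicates 2 and 3, the highest of the 12 for this gene.

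**Figure D2:**
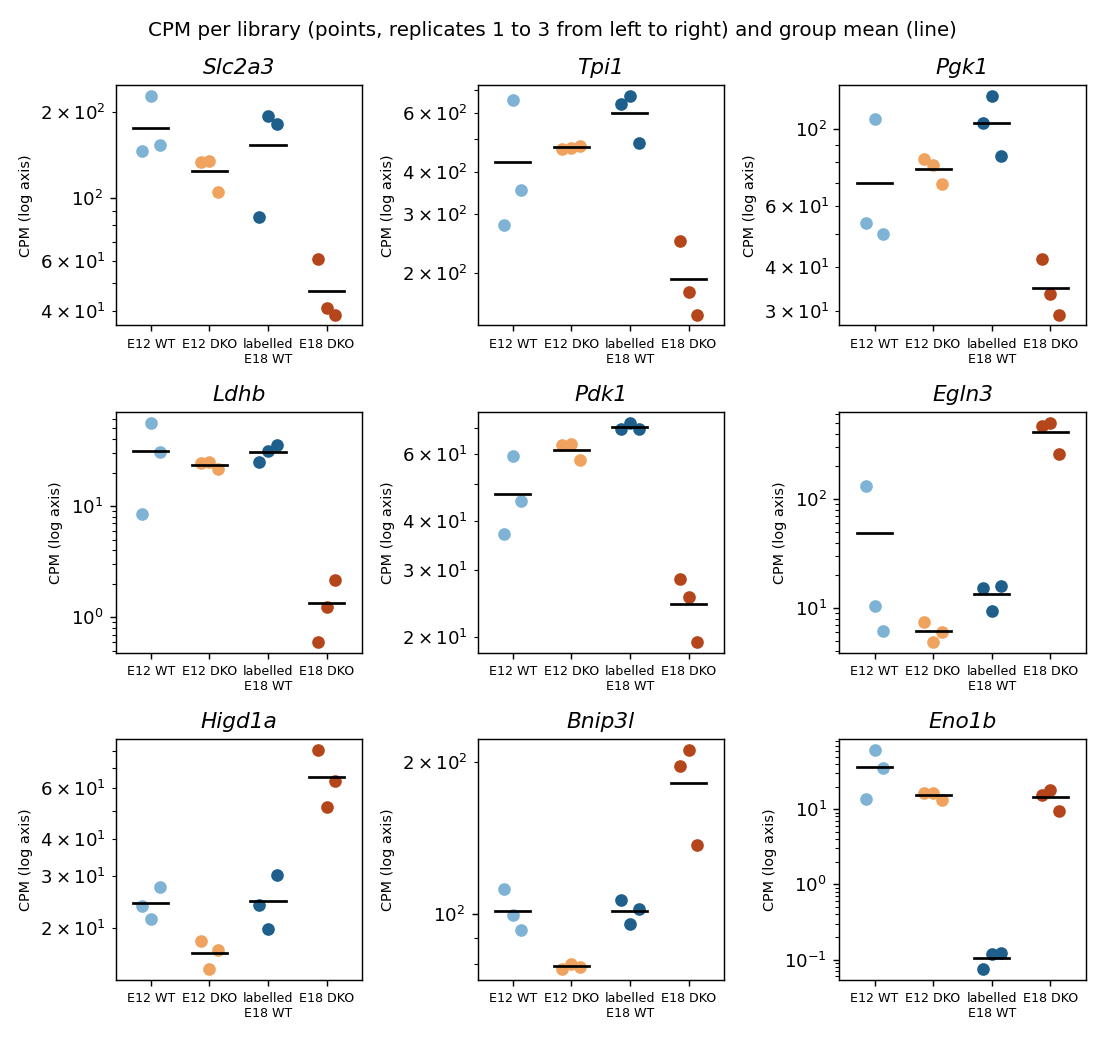
CPM on a log axis for 9 genes in the 4 groups, with 1 point per library and a line at the group mean. Slc2a3, Tpi1, Pgk1, Ldhb and Pdk1 are lowest in E18 DKO, Egln3, Higd1a and Bnip3l are highest there, and Eno1b is near 0.1 CPM in the labelled E18 WT group and at 9.53 CPM or more in the others.

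Pyruvate, lactate and acid handling had 3 genes lower and 0 higher of 5 at E18, where 21.8% of all tested genes were lower and 20.5% higher. Ldha, the lactate dehydrogenase subunit A that favours lactate formation, had the highest level of the 37 genes, 201.4 CPM per kb (chromosome 7, 46841475 to 46855627). It had 677, 648 and 616 CPM in E12 DKO, versus 669, 832 and 465 CPM in E12 WT. It had 540, 489 and 373 CPM in E18 DKO, versus 969, 1043 and 678 CPM in the labelled E18 WT group. The E12 groups overlapped (-0.02 ± 0.25, edgeR adjusted p = 0.974), and the E18 groups did not (-0.94 ± 0.25, 0.012). Against E12 DKO the fall was not called (-0.47 ± 0.25, 0.146).

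Ldhb, the subunit B of heart and other oxidative tissues, showed the greatest fall of the 37 genes (chromosome 6, 142490249 to 142507957). It had 0.605, 1.24 and 2.18 CPM in E18 DKO, versus 24.7, 31.2 and 35.6 CPM in the labelled E18 WT group. It had 24.4, 25.1 and 21.3 CPM in E12 DKO, versus 8.41, 55.7 and 30.5 CPM in E12 WT, lowest in E12 WT 1. The E18 DKO libraries were below the other 9. Log2 fold changes were -4.50 ± 0.64 at E18 (edgeR adjusted p = 0.000466), -0.42 ± 0.53 at E12 (0.657) and -4.13 ± 0.63 against E12 DKO (0.000525). The pseudogene Gm5514 shares 21% of its 50-base words.

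Pdk1 encodes a kinase that switches off pyruvate dehydrogenase and so keeps pyruvate out of the mitochondrial cycle, and it is a known HIF target (chromosome 2, 71873224 to 71903858). It had 28.4, 25.5 and 19.5 CPM in E18 DKO, versus 69.5, 72.0 and 69.6 CPM in the labelled E18 WT group. It had 63.2, 63.4 and 57.8 CPM in E12 DKO, versus 37.1, 59.0 and 45.1 CPM in E12 WT. Each E18 DKO library was again below the other 9, with log2 fold changes of -1.52 ± 0.19 at E18 (edgeR adjusted p = 0.000267), 0.38 ± 0.19 at E12 (0.238) and -1.33 ± 0.19 against E12 DKO (0.000418). None of its 50-base words is shared with another gene.

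Slc16a3 encodes MCT4, which exports lactate, and Car9 encodes a carbonic anhydrase at the cell surface that handles acid. Slc16a3 had 24.4 to 30.0 CPM in E12 DKO, versus 29.0, 92.1 and 84.0 CPM in E12 WT, with a log2 fold change of -1.30 ± 0.47 (edgeR adjusted p = 0.137), and of -0.35 ± 0.47 at E18 (0.564). Car9, a strongly HIF-dependent gene in other tissues, was the lowest of the 37 at 0.595 CPM per kb. It lay between 0.177 and 3.68 CPM in the 12 libraries, with overlapping groups at both stages.

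**Figure D3:**
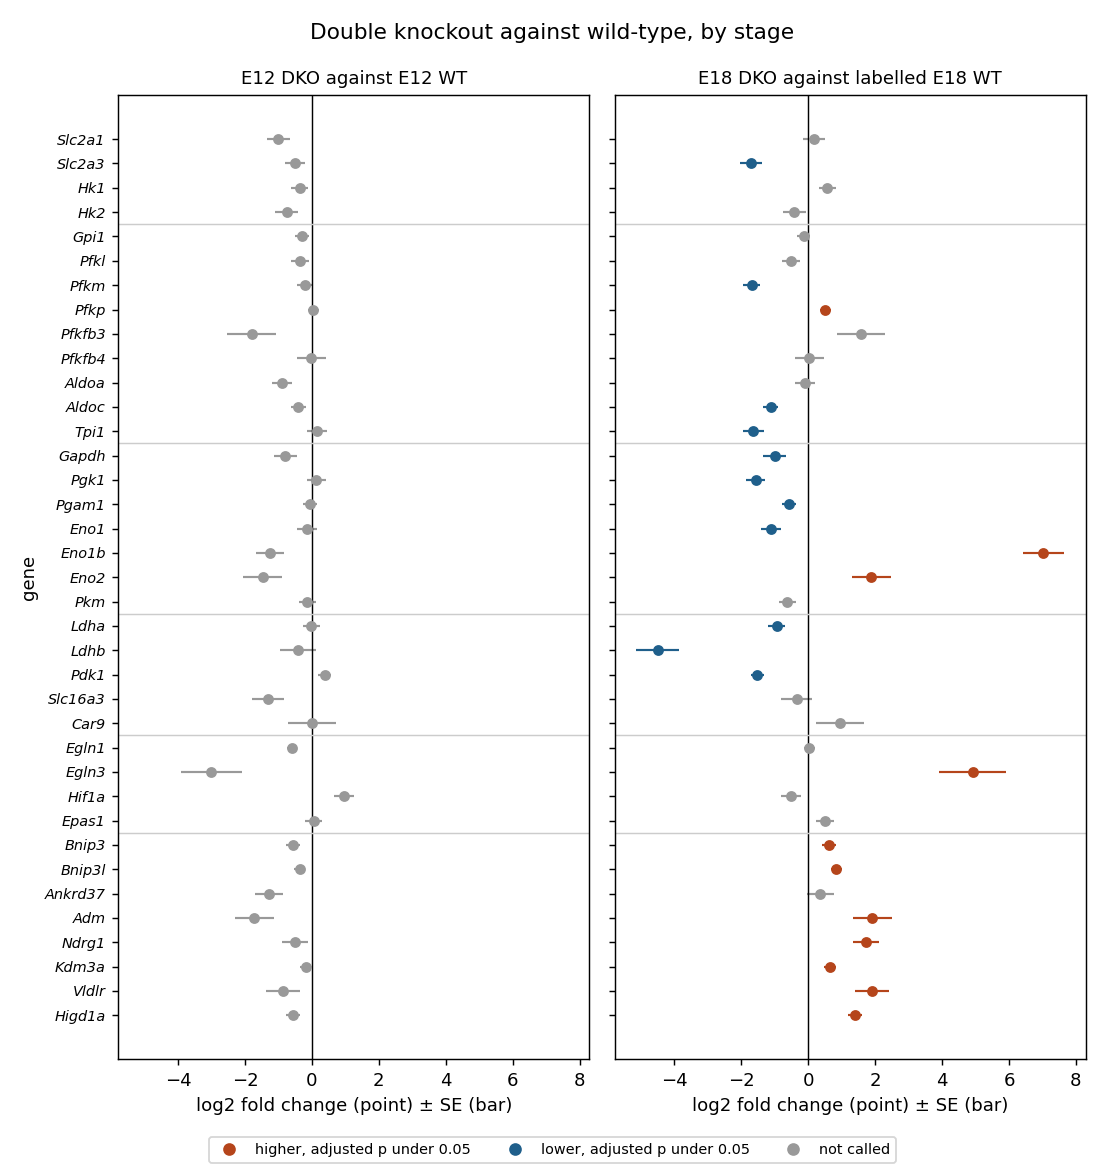
Log2 fold change of DKO against wild-type for the 37 genes at E12 (left) and at E18 against the labelled E18 WT group (right), with bars of 1 SE. Coloured points have an edgeR adjusted p under 0.05, higher in red and lower in blue. There are 0 coloured points at E12 and 22 at E18, where 7 of the 8 other hypoxia-induced genes at the bottom are red and Eno1b lies at 7.03.

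Oxygen sensing had 1 gene higher and 0 lower of 4 at E18 (25%, against 42.3% of all tested genes called). Egln3 encodes the prolyl hydroxylase PHD3, which is itself induced by HIF (chromosome 12, 54178981 to 54203860). It had 472, 500.4 and 258 CPM in E18 DKO, versus 15.4, 9.38 and 16.0 CPM in the labelled E18 WT group. It had 7.53, 4.91 and 5.98 CPM in E12 DKO, versus 131, 10.5 and 6.18 CPM in E12 WT. The E18 DKO libraries were above the other 9, and E12 WT 1 came next. The log2 fold change was 4.92 ± 1.00 at E18 (edgeR adjusted p = 0.00285) and 6.06 ± 1.05 against E12 DKO (0.00111). At E12 it was -3.005 ± 0.92 (0.103), and without E12 WT 1 it was -0.45 (0.388).

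Per length, Egln3 was at 154 CPM per kb in E18 DKO, second of the 37 genes after Aldoa (163.8), and at 2.31, 18.5 and 5.11 CPM per kb in E12 DKO, E12 WT and the labelled E18 WT group. Egln1, which encodes PHD2, the main oxygen sensor, differed in another way (chromosome 8, 124908587 to 124949324). It lay at 66.2, 71.0 and 71.5 CPM in E12 DKO, against 113, 90.7 and 110 CPM in E12 WT, 108, 85.1 and 106 CPM in E18 DKO and 106, 86.3 and 99.8 CPM in the labelled E18 WT group. The E12 DKO libraries were below the other 9. The E12 difference had the lowest p of the 37 genes and was not called (-0.59 ± 0.15, edgeR adjusted p = 0.0791), and without E12 WT 1 it was (-0.53, 0.0395). At E18 it was 0.03 ± 0.15.

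Hif1a and Epas1 encode the alpha subunits HIF-1α and HIF-2α, whose protein levels are set mainly by oxygen and were not measured here. Hif1a had 178, 166 and 189 CPM in E12 DKO, versus 97.0, 119 and 60.03 CPM in E12 WT (chromosome 12, 73901375 to 73947530). It had 85.4, 120 and 58.7 CPM in E18 DKO, versus 123, 158 and 97.0 CPM in the labelled E18 WT group. E12 DKO was above the other 9 libraries, with log2 fold changes of 0.95 ± 0.30 at E12 (edgeR adjusted p = 0.109), -0.51 ± 0.30 at E18 (0.184) and -1.01 ± 0.30 for E18 DKO against E12 DKO (0.0175). The last was lost without E12 DKO 3, E18 DKO 1 or E18 DKO 3 (-0.97, -0.99 and -0.79, adjusted p = 0.0515 to 0.0628). Epas1 was not called in either genotype comparison (0.05 ± 0.26 and 0.50 ± 0.26), although its E18 groups did not overlap, and was at 0.60 ± 0.26 against E12 DKO (edgeR adjusted p = 0.0782).

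The 8 other hypoxia-induced genes had values of the same sign within each stage. At E18, 7 were called higher and 0 lower, against 20.5% of all tested genes called higher, with a median log2 fold change of 1.11 and all 8 values positive. At E12 all 8 values were negative, with a median of -0.57 and 0 called. The E12 groups overlapped for Ndrg1, Kdm3a and Vldlr. E12 WT 1 was the highest E12 library for these genes and also for Bnip3, Bnip3l and Adm. For Ankrd37 and Higd1a the highest was E12 WT 3. Ndrg1 had 757 CPM in E12 WT 1, 357 and 226 CPM in E12 WT 2 and 3 and 271 to 373 CPM in E12 DKO. Kdm3a had 66.3 CPM in E12 WT 1, 58.5 and 38.4 CPM in E12 WT 2 and 3 and 44.5 to 52.3 CPM in E12 DKO. The difference between the E18 and E12 genotype contrasts was called higher for each of the 8, against 21.6% of all tested genes. On library size alone the calls of Bnip3 (0.53, edgeR adjusted p = 0.171), Bnip3l (0.55, 0.126), Ankrd37 (0.94, 0.198) and Kdm3a (0.17, 0.662) for this difference were lost. Those of Ankrd37 and Kdm3a were also lost when any 1 of 10 and any 1 of 5 libraries was left out.

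Bnip3 and Bnip3l encode receptors that mark mitochondria for removal by autophagy. Bnip3 had the highest level of this role, 93.0 CPM per kb (chromosome 7, 138890836 to 138909519). It had 150, 153 and 146 CPM in E12 DKO, versus 254, 200 and 216 CPM in E12 WT. It had 370.5, 227 and 253 CPM in E18 DKO, versus 209, 194 and 152 CPM in the labelled E18 WT group. The groups did not overlap at either stage, lower in the DKO at E12 (-0.57 ± 0.21, edgeR adjusted p = 0.135) and higher at E18 (0.62 ± 0.21, 0.0319). The E18 call was lost without E18 DKO 1 (0.38, 0.152) and without labelled E18 WT 2 or 3 (0.0673 and 0.107). It was also lost on library size alone (0.26, 0.335), with no filter on low counts (0.0605), with the groups compared alone (0.0625) and without E12 WT 1 and labelled E18 WT 3 together (0.061).

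Bnip3l had 196, 211 and 137 CPM in E18 DKO, versus 107, 95.9 and 102 CPM in the labelled E18 WT group (chromosome 14, 66985239 to 67008877). It had 78.1, 79.9 and 78.9 CPM in E12 DKO, versus 112, 99.7 and 93.0 CPM in E12 WT. The E18 DKO libraries were the highest of the 12 and the E12 DKO libraries the lowest. Log2 fold changes were 0.83 ± 0.17 at E18 (edgeR adjusted p = 0.00285), -0.36 ± 0.17 at E12 (0.21) and 1.2 ± 0.17 for E18 DKO against E12 DKO (0.000371). Bnip3l also works in the clearing of mitochondria from maturing red cells. Both genes share 50-base words with other genes, 16.5% in Bnip3 and 20.8% in Bnip3l, and are uncertain to that extent.

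Higd1a encodes a mitochondrial inner membrane protein induced by hypoxia (chromosome 9, 121848560 to 121858000). It had 80.4, 51.4 and 63.0 CPM in E18 DKO, versus 24.0, 19.8 and 30.3 CPM in the labelled E18 WT group. It had 18.0, 14.5 and 16.8 CPM in E12 DKO, versus 23.8, 21.4 and 27.5 CPM in E12 WT. Here too the E18 DKO libraries were the highest of the 12 and the E12 DKO libraries the lowest. The log2 fold change was 1.39 ± 0.21 at E18 (edgeR adjusted p = 0.000651), -0.56 ± 0.21 at E12 (0.146) and 1.98 ± 0.22 for E18 DKO against E12 DKO (0.000116).

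Ndrg1, a stress-responsive gene of differentiating epithelia, had 1100, 884 and 661 CPM in E18 DKO, versus 322, 265 and 221 CPM in the labelled E18 WT group (1.71 ± 0.39, edgeR adjusted p = 0.00518). It lay at 757, 357 and 226 CPM in E12 WT, highest in E12 WT 1, and at 271 to 373 CPM in E12 DKO. Vldlr, a receptor of lipoproteins rich in triglyceride, lay at 61.9, 98.8 and 32.0 CPM against 7.20, 15.6 and 28.3 CPM (1.92 ± 0.51, edgeR adjusted p = 0.0111). The E18 DKO libraries were above the other 9 for Vldlr, with E18 DKO 3 just above labelled E18 WT 3.

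Adm, the vasodilator peptide adrenomedullin, lay at 12.1, 4.61 and 7.46 CPM against 0.678, 1.73 and 4.02 CPM (1.91 ± 0.58, edgeR adjusted p = 0.0214). The call was lost without E18 DKO 1 (1.497, 0.0885) and without labelled E18 WT 1 or 2 (1.48 and 1.77, 0.0551 and 0.0744), and without labelled E18 WT 3 the value was 2.72 (0.00552). Kdm3a, a histone H3 lysine 9 demethylase, lay at 75.4, 74.8 and 75.6 CPM against 48.2, 46.2 and 49.1 CPM (0.65 ± 0.18, edgeR adjusted p = 0.0151), with little spread in either group. That call was lost without labelled E18 WT 2 (0.63, 0.0524).

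Ankrd37, an ankyrin repeat protein, was the gene of this role that was not called at E18 (0.36 ± 0.42, edgeR adjusted p = 0.503; chromosome 8, 45996902 to 46005707). It had 9.73, 3.16 and 13.6 CPM in E18 DKO, versus 5.65, 6.01 and 8.86 CPM in the labelled E18 WT group. It had 5.36, 4.07 and 4.26 CPM in E12 DKO, versus 11.01, 10.5 and 11.5 CPM in E12 WT. The E12 groups did not overlap, with a log2 fold change of -1.27 ± 0.42 (edgeR adjusted p = 0.117), and the E18 groups did. Against E12 DKO it was not called (0.95 ± 0.42, edgeR adjusted p = 0.085).

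With libraries scaled by total counts alone, the median log2 fold change of all tested genes at E18 moved from -0.04 to -0.41, and the 22 calls became 18, with 5 higher and 13 lower. Of all tested genes 46.3% were then called, 13.1% higher and 33.1% lower. Adm, Bnip3, Bnip3l, Eno2, Kdm3a and Pfkp were then not called, at positive values from 0.15 to 1.55, and Pfkl and Pkm were called lower.

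Although scaling and spread came from the fit over all 12 libraries, E18 DKO against E12 DKO compares libraries of 1 genotype and strain label. It leaves out the mean of the labelled E18 WT group. There 21 of the 37 genes were called, 13 higher and 8 lower, against 46% of all tested genes (23.2% higher and 22.8% lower). Of the 8 other hypoxia-induced genes 7 were called higher, with Adm at 3.01 ± 0.61, Vldlr at 3.43 ± 0.54 and Bnip3 at 0.92 ± 0.21. Ndrg1 was at 1.49 ± 0.39, Kdm3a at 0.64 ± 0.18, Pfkp at 0.53 ± 0.17 and Aldoc at -0.58 ± 0.22, with edgeR adjusted p-values of 0.00926, 0.0159, 0.0252 and 0.0483. Leaving out single libraries ended the calls of Kdm3a (E12 DKO 1 or 2), Pfkp (E12 DKO 1, E12 DKO 2 or E18 DKO 1) and Aldoc (any 1 of the 6), and that of Egln1 (0.52 ± 0.15) without any 1 of 5 libraries, with E18 DKO 2 the exception. On library size alone the calls of Hk1, Pfkp (0.19, edgeR adjusted p = 0.379), Egln1 (0.17, 0.374) and Kdm3a (0.29, 0.282) were lost, and with no filter on low counts those of Pfkp, Egln1 and Aldoc (0.0661, 0.0548 and 0.145). The Aldoc call was lost with limma voom too (0.0665). Of the 20 genes of glucose entry and glycolysis 5 were called lower and 4 higher. This comparison shares the E18 DKO libraries with the genotype comparison at E18, so the comparisons are not independent.

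The labelled E18 WT group and E12 WT differed in 1 of the 37 genes, Eno1b, which was lower in the labelled E18 WT group, against 0.953% of all tested genes (0.661% lower). The groups E12 DKO and labelled E18 WT also differed in Eno1b alone, against 0.187% of all tested genes (0.16% higher). An unadjusted p under 0.05 was found for 8 of the 37 genes, against 9.13% of all tested genes, and limma voom called 0. In that comparison 31 of 37 values were negative, with a median log2 fold change of -0.39, against -0.02 for all tested genes. The E12 DKO libraries lay below the labelled E18 WT group without overlap for 19 genes and above them for 3, against 14.5% and 15.5% of all tested genes.

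The genotype contrast was also set out as shares of isoforms, each the share of 1 gene in the summed counts per exon length of its family. At E18 the Ldhb share of Ldha and Ldhb was 0.235, 0.531 and 1.22% in DKO and 5.10, 5.93 and 9.97% in the labelled E18 WT group. The Slc2a3 share of both transporter genes was 5.93, 9.73 and 7.61% against 16.9, 27.1 and 21.2%. The Pfkp share of the phosphofructokinase genes was 39.5, 42.2 and 46.6% against 26.4, 21.8 and 26.3%.

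The E18 groups did not overlap in any of the 5 shares. The differences of the means were -6.34 percentage points for Ldhb, -13.99 for Slc2a3, 17.95 for Pfkp, -17.01 for the Hk2 share of both hexokinase genes and -0.68 for the Aldoc share of both aldolase genes. Each had p = 0.1 in a two-sided exact permutation test, the smallest that 3 against 3 libraries allow, and an adjusted p of 0.167 over the 10 share tests of the family. At E12 the differences were -1.89 points for Ldhb, 5.42 for Slc2a3, 4.83 for Pfkp, -6.11 for Hk2 and 0.19 for Aldoc (exact p = 0.4, 0.1, 0.4, 0.3 and 0.7). Set beside E12 DKO, with no test, E18 DKO differed by -6.47 points for Ldhb, -15.14 for Slc2a3, 9.05 for Pfkp, -15.63 for Hk2 and -0.59 for Aldoc, and these groups overlapped for Pfkp alone. Slc2a3 thus held a larger share in E12 DKO than in each E12 WT library and a smaller one in E18 DKO than in each labelled E18 WT library.

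**Figure D4:**
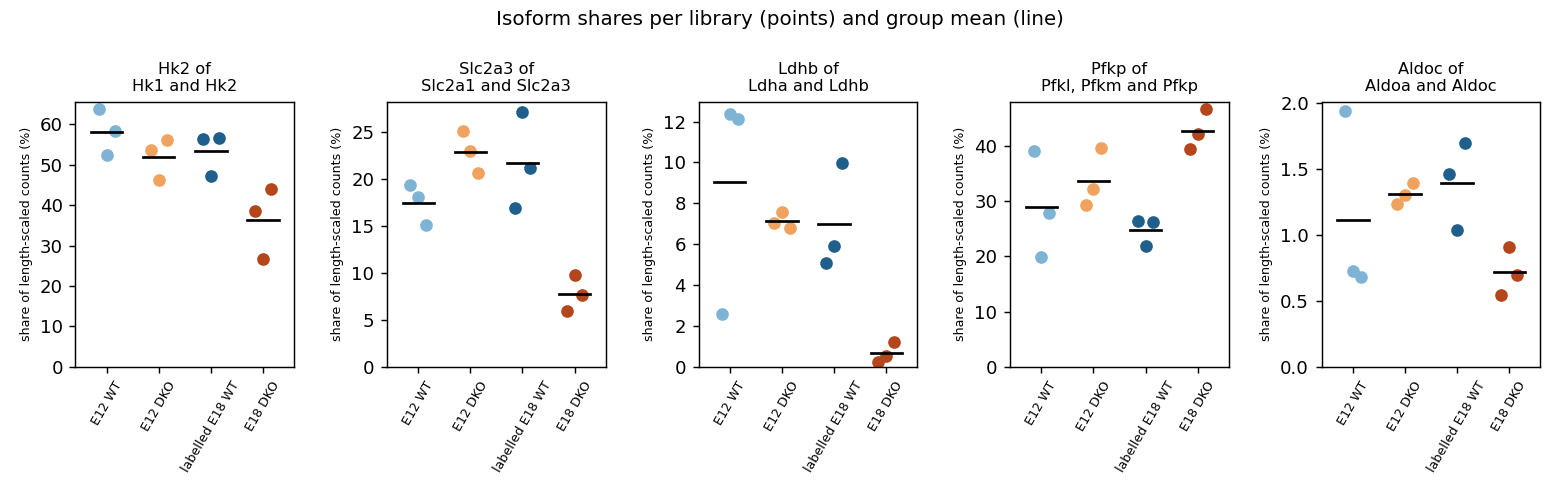
Share of 1 isoform gene in its family, in percent of counts per exon length, with 1 point per library and a line at the group mean, each axis from 0. The E18 DKO points lie apart from the labelled E18 WT group in the 5 panels, and the Ldhb share in E18 DKO is 1.22% or less.

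Other genes of these pathways were read from longer lists. Of 43 tested genes of other sugar and pyruvate enzymes, 5 were higher and 15 lower in E18 DKO (46.5%), near the 42.3% of all tested genes, with a median log2 fold change of -0.34. Against E12 DKO 7 were higher and 15 lower, with a median of -0.26. At E18 the lowest adjusted p belonged to Pgm2, which was higher (1.86, edgeR adjusted p = 9.76e-05), and to Pgm1, a phosphoglucomutase that was lower (-2.05, 0.000264). Pdk2, another pyruvate dehydrogenase kinase, was higher (3.06, edgeR adjusted p = 0.000673), at 135, 118 and 99.5 CPM against 13.5, 16.3 and 12.6 CPM, opposite to Pdk1. Slc16a7, the monocarboxylate transporter MCT2, was lower (-2.99, edgeR adjusted p = 0.000725).

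Of 51 tested genes of the wider HIF pathway, 13 were higher and 10 lower in E18 DKO (45.1%), with a median of -0.18. Against E12 DKO 15 were higher and 10 lower (49%, against 46% of all tested genes), and the median had the other sign, at 0.33. The following values are those against the labelled E18 WT group. Ddit4, a hypoxia-induced inhibitor of mTOR, was higher (2.80, edgeR adjusted p = 0.000262), as were Stc2, a stanniocalcin (2.503, 0.000339), and Pgf, placental growth factor (3.35, 0.000437). Arnt2, a partner of the HIF alpha subunits, was lower (-5.13, edgeR adjusted p = 0.000788). At E12, 0 genes of either list were called, against 0.353% of all tested genes, and 10 of 43 and 15 of 51 had an unadjusted p under 0.05, against 24.3%. Both lists went both ways at E18.

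Markers of other cells and of cell division moved with the E18 result. All 8 cell division genes were called lower in E18 DKO, both against the labelled E18 WT group and against E12 DKO. The 3 markers of primitive red cells summed to 17.3 to 19.0 CPM in E18 DKO, 6049 to 7711 CPM in the labelled E18 WT group and 698 to 2957 CPM in E12 DKO, with 3 of 3 called lower against either group. The 9 general red cell markers summed to 1015 to 1898 CPM in E18 DKO, 2301 to 5193 CPM in the labelled E18 WT group and 336 to 1308 CPM in E12 DKO, with 7 and 4 called lower and 0 higher.

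The 7 cartilage markers summed to 15.3 to 19.6 CPM in E18 DKO, 673 to 1382 CPM in the labelled E18 WT group and 584 to 959 CPM in E12 DKO. Of the 6 tested, 5 were lower and 1 higher against the labelled E18 WT group, and 5 lower against E12 DKO. The 6 markers of membrane mesenchyme summed to 3354 to 6130 CPM in E18 DKO against 13560 to 29720 CPM, with 4 lower and 1 higher, and to 12500 to 15550 CPM in E12 DKO. The 6 macrophage markers summed to 795 to 1142 against 297 to 383 CPM, with 4 higher and 2 lower, and to 326 to 348 CPM in E12 DKO. Endothelial markers summed to 343 to 357 against 165 to 305 CPM, with 2 of 6 higher and 1 lower, and to 190 to 238 CPM in E12 DKO. Yolk sac endoderm markers overlapped, at 81000 to 162700 against 53260 to 81300 CPM, with 3 of 8 higher and 0 lower, and lay at 83750 to 87260 CPM in E12 DKO. Neural markers stayed under 21 CPM in every library, with 2 of 5 tested lower. The 8 markers of amnion epithelium summed to 4586 to 5864 against 2045 to 2570 CPM, with 4 higher and 3 lower, and to 1878 to 2243 CPM in E12 DKO. Among the latter Gabrp had 0.128 to 0.218 CPM in E18 DKO, versus 4.52, 45.0 and 269 CPM in the labelled E18 WT group. The part of these cells in the results on glycolysis and hypoxia genes was not tested.

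Mitochondrially encoded genes took 21.2% of the counts of E12 WT 3 and 3.58 to 7.78% in the other libraries, and 0 of 6 tested were called at E18. Library 3 labelled E18 WT held 985.9 CPM of trophoblast and decidua markers, against at most 74.9 CPM in the others. Markers of skeletal muscle summed to at most 116 CPM and those of neutrophils to at most 19.4 CPM in any library. Without E12 WT 1 and labelled E18 WT 3 together, the calls were 6 at E12, each lower, and 25 at E18, 12 higher and 13 lower. Over all genes tested in that fit, 3753 were then called at E12. At E18 the count over all genes was 7199 to 9159 across this and the other alternatives that are not single left-out libraries.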

How the data were processed

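RNA from fetal membranes was sequenced as 12 libraries in 4 groups, named from the labels. The submitters' processing notes name Trimmomatic 0.36, STAR 2.4.2a, featureCounts from Subread 1.5.0 and mouse build GRCm38. Counting used exons of Ensembl release 86 genes and strand option 2, and reads with several alignments were not counted, per the file headers. The deposited values are raw counts per gene, whole and not normalized, per the file headers. The counts of 11 libraries came from their own files, which matched the series table exactly, and those of E12 DKO 1 from that table. Symbols matched 48349 of 48795 gene IDs.

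From these counts, genes were filtered with filterByExpr, leaving 18153, and scaled by TMM. A quasi-likelihood model of group means was fitted in edgeR 4.0.16 (R 4.3.3) over the 12 libraries, with 8 residual degrees of freedom and a biological coefficient of variation of 0.373. P-values were adjusted by Benjamini-Hochberg over all tested genes and called under 0.05, and the SE is the absolute log2 fold change over the square root of F. The fit was also run on simulated counts, in which each gene had the same spread in all groups. That run therefore did not test the fit under the unequal spread of the groups that follows. The coefficient within a group was 0.177 for E12 DKO, 0.545 for E12 WT, 0.331 for E18 DKO and 0.338 for the labelled E18 WT group. Isoform shares used counts per exon length and exact permutation tests. Words of 50 bases shared between genes were counted in the reference transcripts, and promoters and motifs in the RefSeq table.

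The genes, lists and alternatives were chosen with earlier results of these data known. Values in every library were given for the gene with the highest CPM per kb in each role, the 10 called genes with the lowest adjusted p at E18 and the 5 with the lowest p at E12. Other called genes of the list were added after their values were seen. Outside the 37 genes, up to 4 genes of each other list with the lowest adjusted p were named. The alternatives were RLE size factors, scaling by library size, scaling without globin and mitochondrially encoded genes, DESeq2 1.42.0, limma 3.58.1 voom, no filter, 1 CPM in 3 libraries, a replicate block, the groups compared alone, each library left out, and E12 WT 1 left out together with labelled E18 WT 3. Plots were made with matplotlib 3.10.9 in Python 3.11.15.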

Additional observations from a re-analysis of the deposited data

Results flagged for a closer look

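For 21 of the 37 genes the contrast of DKO with wild-type at E18 differed from that at E12, against 41.9% of all tested genes. The difference itself was tested (edgeR's quasi-likelihood test, adjusted by Benjamini-Hochberg over 18153 genes). Each value is the E18 log2 fold change minus the E12 log2 fold change, and each rests on the labelled E18 WT group and on E12 WT 1. Because the stage of the labelled E18 WT group is in doubt, genotype and stage cannot be told apart in these differences.

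The difference was positive for the 8 other hypoxia-induced genes, at 3.63 for Adm, 2.77 for Vldlr, 2.22 for Ndrg1, 1.95 for Higd1a, 1.63 for Ankrd37, 1.2 for Bnip3l, 1.19 for Bnip3 and 0.82 for Kdm3a. It was also positive for Eno1b at 8.28, Egln3 at 7.92, Pfkfb3 at 3.38, Eno2 at 3.36, Hk1 at 0.94 and Egln1 at 0.62. It was negative for Ldhb at -4.09, Pdk1 at -1.91, Tpi1 at -1.78, Pgk1 at -1.70, Pfkm at -1.49, Hif1a at -1.46 and Slc2a3 at -1.21. Without E12 WT 1 it was 5.36 for Egln3, 1.46 for Pfkfb3 and 1.60 for Ndrg1. The calls of Slc2a3, Hk1, Egln1, Ankrd37, Kdm3a and Pfkfb3 were each lost when at least 1 single library was left out. Scaled by library size alone, the calls of Hk1, Egln1, Bnip3, Bnip3l, Ankrd37 and Kdm3a were lost. Groups of 3 were not tested for single outlying libraries.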

How the results depend on the processing

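The count of called genes at E12 was 0 and became 7 with DESeq2's Wald test and 6 without E12 WT 1 and labelled E18 WT 3 together, with 0 to 6 when single libraries were left out (6 without E12 WT 1). The count for E12 DKO against the labelled E18 WT group was 1 and became 0 with limma voom. The other counts stayed within 1.5 times their reported value under every alternative run, with 15 to 22 calls at E18 and 15 to 21 for the difference when single libraries were left out. Over all tested genes, the 64 calls at E12 became 2085 with DESeq2, 0 with the groups compared alone, 5 with the replicate block, 3753 without both libraries, and 1 to 3199 when single libraries were left out. The 173 calls between the wild-type groups became 1223 with DESeq2, 272 on library size alone, 56 with the groups compared alone, 77 with the replicate block, 1028 without both libraries and 35 to 1684 when single libraries were left out. The 34 calls of E12 DKO against the labelled E18 WT group became 247, 16 with voom, 73 with the groups compared alone, 21 with the block and 9 to 26. The cause was not tested. Without length scaling the difference in the Slc2a3 share at E18 was -21.51 points and in the Ldhb share -3.14, because the genes differ in length. Of 1218 values of single genes under alternatives, 1076 kept direction and side of the threshold, 132 fell short of it, 9 newly passed it and 1 reversed, the difference of Egln1 on library size alone (-0.05).

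Deviations of libraries with the same replicate number were weakly correlated at most (correlations from -0.176 to 0.18), so the numbers were not used as pairs in the main fit. A shared litter or batch was not tested. In the series table the column numbers of the labelled E18 WT group do not follow the title numbers. With the number as a replicate block, 0 genes were called at E12, 21 at E18 (without Gapdh, edgeR adjusted p = 0.0552), 19 for the difference and 20 for E18 DKO against E12 DKO. The share differences under the block had exact sign-flip p-values of 0.25 to 0.75, with 0.25 the smallest that 3 pairs allow. Precision at the lowest levels, such as the 2 to 4 counts of Eno1b in the labelled E18 WT group, is limited by depth.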
